A study of Rattus norvegicus with 17 samples.

Results

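Red blood cell precursor genes and granule protein genes of neutrophils and eosinophils were followed through cultured fetal rat gubernacula, the ligaments that guide the testis during its descent. The set was 32 named genes, chosen by their lower log2 signals at 100 nM than in controls on these same arrays together with known genes of the same cells. Its members were the probe sets that the platform annotation gives to 1 of these genes alone. That rule found 38 of the 31099 probe sets, for 29 of the 32 genes. Elane, Mpo and Ngp had no single-gene probe set in the annotation table used here and have no values below. By role, 4 genes encode red cell membrane proteins, 8 encode erythroid factors, 5 serve haem, globin and iron, 8 with values encode granule proteins, and 4 (Urah, Cd52, Creg1 and Dedd2) belong to none of these roles. Of the 38 probe sets, 33 passed the filter on low values, covering 28 genes.

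Male fetuses of the Long Evans strain, taken on gestational day 17, gave the gubernaculum bulbs, and 2 bulbs were pooled for each biological replicate. They lay on filters between air and medium, 24 h in medium alone and then 24 h with or without insulin-like 3 (Insl3), the peptide hormone of fetal Leydig cells. The control group of 6 arrays received no hormone, a 10 nM group of 5 arrays and a 100 nM group of 6 arrays received Insl3 at those doses, and every group shared the same medium with 2% charcoal-stripped fetal bovine serum, insulin, transferrin and selenium. The comparisons used 15 arrays (6, 3 and 6), because the submitters marked 10 nM replicates 4 and 5 as outliers. Explants of this kind have no blood supply. The labels do not say which fetuses shared a litter.

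In the rat fetus of this age most red cells are made in the liver and leave it while still maturing. A maturing red cell precursor switches on a small set of transcription factors, among them Gata1, Tal1 and Klf1, which drive globin, the enzymes of haem synthesis and the proteins of the membrane skeleton. Granulocytes store antimicrobial proteins in granules, and the transcripts of many granule proteins are made during a limited stage of their maturation. A signal in RNA from whole tissue depends on the number of such cells and on the RNA in each, and in these bulk samples fewer cells and less RNA per cell cannot be told apart.

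Signals are log2 values per probe set made with GCRMA, so a difference of 1 is a doubling. Array medians lay between 4.29 and 4.47, the lowest value was 2.11, and 34.7% to 37.9% of the probe sets of an array lay within 0.05 of it. A change that reaches this floor is compressed. Markers of mesenchyme had strong signals in these arrays, as the collagen gene Col3a1 with 15.81 ± 0.06 in controls and 15.82 ± 0.06 under 100 nM (SD, n = 6 each). Rxfp2, the Insl3 receptor gene, had no single-gene probe set in the table. Throughout, "called" means an adjusted p under 0.05 in limma (Benjamini-Hochberg over 18938 tested probe sets).

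At 100 nM most of these genes had far lower signals than in controls, in the erythroid and in the granule set. The median log2 difference was -2.45 over the 17 erythroid genes and -2.61 over the 8 granule genes, beside 0.0 over all tested probe sets. Of the 38 member probe sets 20 were called lower and none higher, for 17 of the 29 genes, where 4.39% of all tested probe sets were called lower and 6.51% higher. Because this contrast chose the members, these counts describe them and carry no test. At 10 nM no member was called in either direction, where 10.6% of all tested probe sets were called (5.70% lower and 4.88% higher). At an unadjusted p under 0.05 in limma, 4 of 33 tested member probe sets were higher at 10 nM (both of Tfrc, 1 of Creg1 and Lcn2) and none lower, where 23.8% of all tested probe sets passed. The median difference from control at 10 nM was -0.17 for the erythroid genes and 0.62 for the granule genes, beside 0.034 over all tested probe sets.

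**Figure D1:**
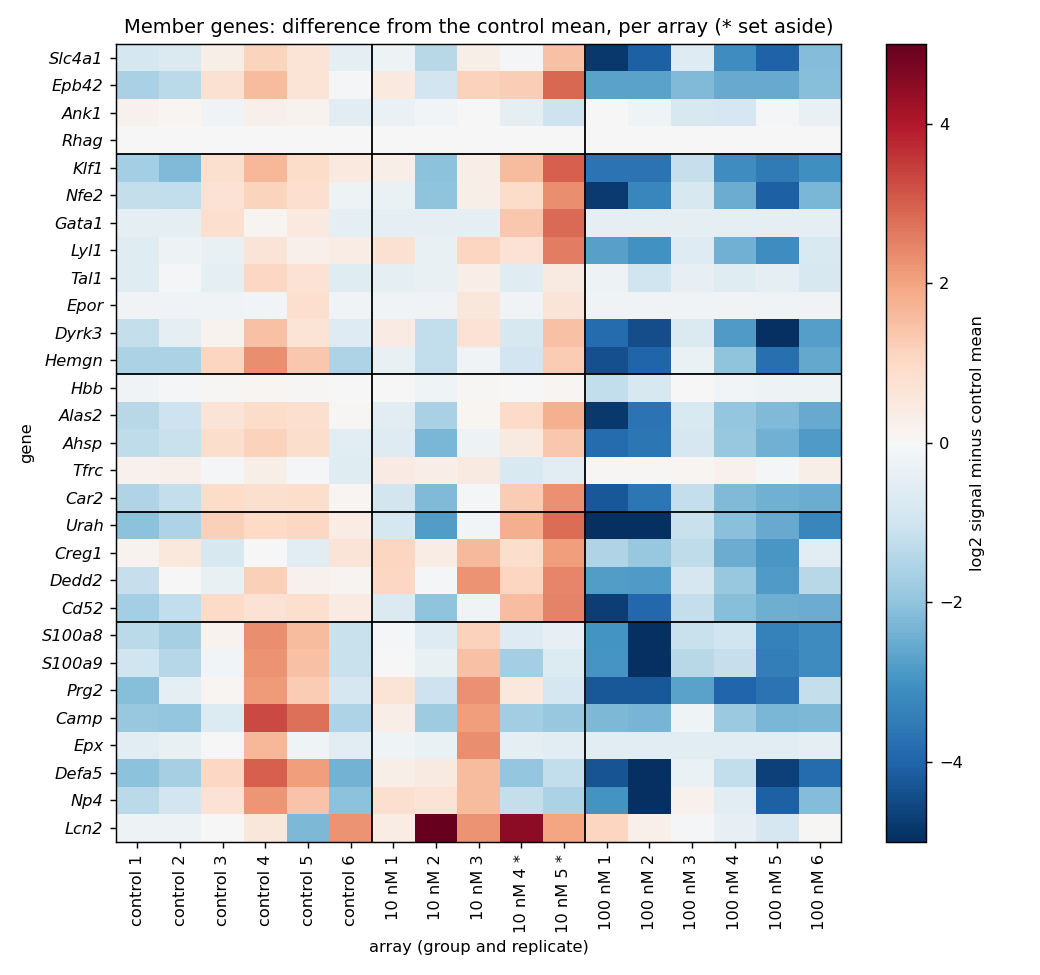
Each cell is the log2 signal of a member gene in 1 array minus the mean of the 6 controls (red higher, blue lower; columns are the 17 arrays, asterisks mark the 2 set-aside arrays, black lines separate roles and groups, and the colour scale stops at 5 in both directions). The 100 nM columns are blue in most genes, least in replicate 3, while Ank1, Tfrc, Epor, Rhag, Hbb, Gata1, Tal1, Epx and Lcn2 stay pale or mixed there.

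Of the red cell membrane genes Slc4a1 and Epb42 differed widely at 100 nM, Ank1 differed little, and Rhag had no signal above the floor. Slc4a1 encodes band 3, the anion exchanger that swaps chloride for bicarbonate in red cells and anchors their skeleton. Its brighter probe set (1387656_at) read 9.03 at the lowest, 9.83 at the median and 11.01 at the highest in controls, 9.67, 8.54 and 10.2 in the 3 arrays at 10 nM, and 5.08, 6.34 and 9.27 at the lowest, median and highest at 100 nM. At 100 nM only replicate 3 reached into the control range, lying above controls 1 and 2, and the group mean was 8.85-fold lower (6.77 ± 1.53 against 9.92 ± 0.81, SD, n = 6 and 6). The 10 nM arrays overlapped the controls, with a difference of -0.44 ± 0.77 (SE; limma adjusted p = 0.776). The other probe set of Slc4a1 (1369634_at) gave a difference of -2.42 at 100 nM, with 100 nM replicate 3 again the only array inside the control range.

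Epb42 encodes protein 4.2, which ties band 3 to ankyrin. Its log2 signal ran from 3.48 through a median of 5.41 to 6.7 in controls, was 5.61, 4.17 and 6.28 at 10 nM, and ran from 2.43 through 2.6 to 2.99 at 100 nM. All 6 arrays at 100 nM lay below all 9 others, and the values at 100 nM were close to the floor, so the 5.47-fold lower mean against control is compressed. Ank1, the ankyrin of the red cell membrane that other tissues also make, stood apart from these genes: its brightest probe set read 7.49, 8.21 and 8.34 (lowest, median, highest) in controls, 7.75, 7.93 and 8.09 at 10 nM, and 7.25, 7.77 and 8.1 at 100 nM. The Ank1 groups overlapped, with a difference of -0.38 at 100 nM, and its other 2 probe sets were at or near the floor. Of these, 1395046_at reached 3.0 in controls, 2.33 at 10 nM and 2.32 at 100 nM. Its difference of -0.24 at 100 nM was not called. Rhag, a membrane ammonia channel of the Rh complex, read 2.11 in all 17 arrays and was not tested.

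Among the erythroid factors, Klf1, Nfe2, Lyl1, Dyrk3 and Hemgn were called lower at 100 nM, while Gata1, Tal1 and Epor had low signals in every group. Klf1 encodes the zinc finger activator of adult beta globin and of many membrane and haem genes. It read 4.08 at the lowest, 6.93 at the median and 7.93 at the highest in controls, 6.58, 4.22 and 6.62 at 10 nM, and 2.57, 2.98 and 5.11 at 100 nM. Controls 1 and 2, at 4.6 and 4.08, lay below the other 4 controls and below 100 nM replicate 3, and the mean was 8.27-fold lower at 100 nM. Nfe2, the erythroid subunit of the NF-E2 factor that acts at the globin locus, read 6.84, 8.32 and 9.21 in controls (lowest, median, highest), 7.77, 6.08 and 8.38 at 10 nM, and 3.31, 5.22 and 7.29 at 100 nM. For Nfe2 too, 100 nM replicate 3 was the only array of its group within the control range, and the mean difference was -2.95.

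Lyl1 encodes a basic helix-loop-helix factor related to Tal1 that is made in early blood cells. It ran from 8.21 through 8.79 to 9.45 in controls, read 9.56, 8.44 and 9.87 at 10 nM, and ran from 5.7 through 6.25 to 8.15 at 100 nM. With Epb42 it was 1 of 2 members whose 100 nM arrays all lay below all controls, which 1.48% of all tested probe sets did (3.48% lay wholly above, no member among them), and its mean was 4.33-fold lower. Dyrk3 encodes a dual-specificity kinase made in erythroid progenitors. It read 6.47, 7.5 and 9.11 in controls (lowest, median, highest), 8.05, 6.44 and 8.38 at 10 nM, and 2.39, 4.3 and 6.93 at 100 nM. The Dyrk3 difference of -3.31 at 100 nM, or 9.91-fold, was the largest among the 17 erythroid genes, and at 10 nM its mean differed from control by -0.03 ± 0.84 (SE; limma adjusted p = 0.994).

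Hemgn encodes hemogen, a nuclear protein of blood-forming cells. Its signal ran from 5.04 through 6.4 to 8.98 in controls, was 6.25, 5.41 and 6.47 at 10 nM, and ran from 2.23 through 3.47 to 6.31 at 100 nM. Controls 1, 2 and 6 lay between 5.04 and 5.09 and the other 3 controls between 7.71 and 8.98, so that 100 nM replicate 3 lay above 3 controls. The call of Hemgn at 100 nM was lost in 11 of the 15 fits that left out 1 array, with differences of -3.35 to -2.38.

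Gata1, the master zinc finger factor of red cell formation, was near the floor: controls ran from 2.11 through 2.43 to 3.43, the 10 nM arrays read 2.12, 2.11 and 2.16, and all 6 arrays at 100 nM read 2.11. Above the filter value of 2.285 lay 3 controls and no kept Insl3 array. Tal1, its partner factor, read 3.46, 3.81 and 5.13 in controls (lowest, median, highest), 3.59, 3.73 and 4.4 at 10 nM, and 3.1, 3.53 and 3.82 at 100 nM, with overlapping groups. Epor, the erythropoietin receptor gene, lay within 0.05 of its own lowest value in 14 of 17 arrays, with control replicate 5 at 4.46 and 10 nM replicate 3 at 4.21 above the rest. Differences at 100 nM were -0.49 for Gata1, -0.59 for Tal1 and -0.17 for Epor, and none of them was called.

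The sequence before the annotated start was available for 22 of the 32 genes (23 entries, RefSeq, GRCr8). GATA factors bind AGATAA and TGATAA, and within 250 bases before the start 1 of these words or its reverse complement stood in 9 of the 23 entries, against 16.9% of all 33465 promoters searched on both strands. The entries with it were those of Hemgn, Epor, Klf1, Lyl1, Alas2, Rhag, Creg1, S100a9 and Np4, so it occurred in factor, haem, membrane and granule genes. Printed below are 3 erythroid members and a granule member whose signals were far lower at 100 nM, on the minus strand and 5′ to 3′, with the GATA words or their reverse complements in capitals.
Klf1, chr19:40158652-40158901: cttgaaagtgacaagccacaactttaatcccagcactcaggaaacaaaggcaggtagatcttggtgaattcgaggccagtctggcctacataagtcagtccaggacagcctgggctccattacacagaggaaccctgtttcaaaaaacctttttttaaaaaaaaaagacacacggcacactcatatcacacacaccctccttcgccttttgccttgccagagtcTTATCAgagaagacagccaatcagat
Lyl1, chr19:40359835-40360084: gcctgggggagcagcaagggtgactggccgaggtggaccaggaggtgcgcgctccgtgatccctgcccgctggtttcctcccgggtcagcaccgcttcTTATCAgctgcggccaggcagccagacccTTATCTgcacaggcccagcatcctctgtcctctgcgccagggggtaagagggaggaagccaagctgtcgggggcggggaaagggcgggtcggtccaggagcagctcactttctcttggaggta
Epb42, chr3:128451684-128451933: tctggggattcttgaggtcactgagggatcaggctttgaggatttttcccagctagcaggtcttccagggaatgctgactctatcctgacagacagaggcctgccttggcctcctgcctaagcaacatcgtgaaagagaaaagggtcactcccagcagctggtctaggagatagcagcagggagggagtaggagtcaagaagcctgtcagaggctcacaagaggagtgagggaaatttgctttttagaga
S100a9, chr2:178490623-178490872: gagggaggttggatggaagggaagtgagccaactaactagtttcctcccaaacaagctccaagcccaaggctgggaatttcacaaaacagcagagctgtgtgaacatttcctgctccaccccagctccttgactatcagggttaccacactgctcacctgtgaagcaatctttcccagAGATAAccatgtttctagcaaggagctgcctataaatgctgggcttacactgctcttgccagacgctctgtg
Counted back from the start, the word began at -26 in Klf1, at -152 and -123 in Lyl1 and at -72 in S100a9. Epb42 had neither AGATAA nor TGATAA in this window. Other words around GATA, such as agatag in Epb42 and ctatca in S100a9, were not searched and are not marked.

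Other words searched in the same windows, on both strands, were CANNTG, the E-box of helix-loop-helix factors (15 of 23 entries, 65.5% of all promoters), CCNCNCCC, the word of Klf factors (12 of 23, 42.8%), and TGAGTCA, which NF-E2 and AP-1 bind (0 of 23, 4.05%). CANNTG stood once and CCNCNCCC at 2 places in the Lyl1 window, and Klf1 had neither. A match is a description of letters and not a bound site.

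Of the haem, globin and iron genes, Alas2, Ahsp and Car2 were called lower at 100 nM. Alas2 encodes the first enzyme of haem synthesis in red cell precursors. It read 10.66, 12.39 and 12.96 in controls (lowest, median, highest), 11.53, 10.42 and 12.15 at 10 nM, and 7.23, 9.69 and 11.29 at 100 nM. Only 100 nM replicate 3 lay above the lowest control, and the mean was 6.28-fold lower. Ahsp, the chaperone of free alpha globin, ran from 10.09 through 11.52 to 12.49 in controls, read 10.69, 9.07 and 11.08 at 10 nM, and ran from 7.48 through 8.74 to 10.52 at 100 nM. Car2, carbonic anhydrase II, ran from 9.62 through 11.57 to 12.02 in controls, read 10.22, 8.93 and 11.01 at 10 nM, and ran from 6.89 through 8.67 to 9.94 at 100 nM. For all 3 of these genes 10 nM replicate 2 lay below every control, and their differences from control at 10 nM were -0.68, -1.07 and -1.07 log2 units (limma adjusted p = 0.644, 0.411 and 0.396).

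Hbb, a beta globin gene, was among the strongest signals on the arrays and moved far less on this scale. It read 16.43, 16.63 and 16.71 in controls (lowest, median, highest), 16.62, 16.37 and 16.65 at 10 nM, and 15.37, 16.35 and 16.61 at 100 nM, on arrays whose highest value was 16.9. The 2 lowest arrays were 100 nM replicates 1 and 2, and the mean difference of -0.44 was not called. Hbe1, an embryonic globin gene and no member, read 14.71 ± 1.41 in controls, 14.35 ± 0.77 at 10 nM and 13.15 ± 1.69 at 100 nM (SD, n = 6, 3 and 6).

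Tfrc, the transferrin receptor gene that dividing cells of every kind use for iron uptake, had overlapping control and 100 nM groups. Its brighter probe set read 10.78, 11.45 and 11.69 in controls (lowest, median, highest), 11.79, 11.72 and 11.85 at 10 nM, and 11.34, 11.47 and 11.69 at 100 nM. The 10 nM arrays all lay above every control, which was true of no other member and of 9.15% of all tested probe sets (no member lay wholly below the controls at 10 nM, and 7.81% of all did), but the difference of 0.41 ± 0.16 was not called (SE; limma adjusted p = 0.131). At 100 nM the difference was 0.12, and the other probe set gave 0.08.

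**Figure D2:**
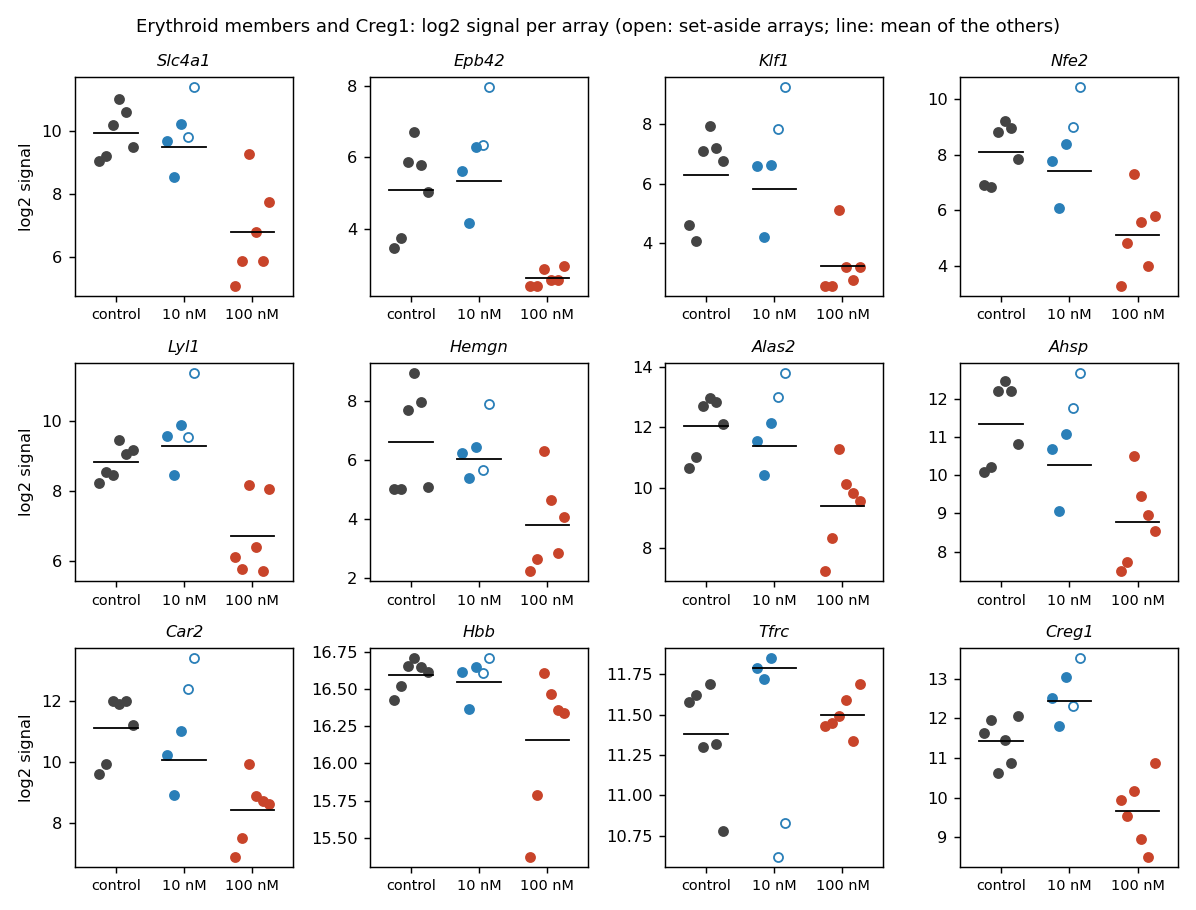
Log2 signal (vertical axis) of 12 members in each array, by group (controls grey, 10 nM blue, 100 nM red; open circles are the set-aside arrays, lines the mean of the kept arrays; each panel has its own axis, and arrays are placed by replicate number). In Epb42 and Lyl1 the 100 nM arrays lie wholly below the controls, in Slc4a1, Klf1, Nfe2, Alas2, Ahsp and Car2 only 100 nM replicate 3 reaches the controls, and the Tfrc groups overlap between control and 100 nM.

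The remaining 4 genes were all called lower at 100 nM. Urah, an enzyme of uric acid breakdown, read 7.44, 10.17 and 10.68 in controls (lowest, median, highest), 8.62, 6.7 and 9.35 at 10 nM, and 4.21, 6.59 and 8.37 at 100 nM, a difference of -3.25 from control at 100 nM. Cd52, a small surface glycoprotein known from lymphocytes and other leukocytes, read 7.92, 10.17 and 10.54 in controls, 8.88, 7.58 and 9.42 at 10 nM, and 4.89, 7.13 and 8.42 at 100 nM, a difference of -2.81. In both genes 100 nM replicate 3 and controls 1 and 2 were the arrays that overlapped, and 10 nM replicate 2 lay below every control. The Urah call was lost without control replicate 3, 4 or 5 or 100 nM replicate 2, with differences of -3.68 to -2.85 over the 15 fits.

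Creg1 encodes a glycoprotein of the endosome and lysosome. Its brighter probe set read 10.63, 11.54 and 12.06 in controls (lowest, median, highest), 12.51, 11.8 and 13.05 at 10 nM, and 8.51, 9.74 and 10.87 at 100 nM. Here control replicates 3 and 5, high for most erythroid genes, were the lowest controls, and 100 nM replicate 6, not replicate 3, reached the control range. Dedd2, a nuclear protein with a death effector domain, read 5.12, 6.34 and 7.44 in controls (lowest, median, highest), 7.31, 6.18 and 8.51 at 10 nM, and 3.43, 3.93 and 5.42 at 100 nM. Mean differences from control were -1.77 for Creg1 and -2.09 for Dedd2 at 100 nM. At 10 nM they were 1.02 ± 0.47 for Creg1 and 1.07 ± 0.58 for Dedd2 (SE; limma adjusted p = 0.204 and 0.288). The other Creg1 probe set (1375428_at) was also called lower at 100 nM, by -2.0. At 10 nM it differed from control by only 0.04 ± 0.49 (limma adjusted p = 0.981).

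The granule protein genes had the widest spread, and 3 of 8 (S100a8, S100a9 and Prg2) were called lower at 100 nM. S100a8 and S100a9 encode the calprotectin subunits, abundant proteins of the neutrophil cytosol. S100a9 read 9.02, 9.88 and 12.69 in controls (lowest, median, highest), 10.48, 10.09 and 11.91 at 10 nM, and 3.17, 7.4 and 9.31 at 100 nM. S100a8 read 7.36, 8.56 and 11.36 in controls, 8.95, 8.39 and 10.16 at 10 nM, and 4.02, 5.94 and 8.03 at 100 nM. In both, 100 nM replicate 2 was the lowest array and replicates 3 and 4 reached the control range, while every 10 nM array lay above every 100 nM array. The differences from control were -3.24 for S100a9 and -2.77 for S100a8 at 100 nM, and over the 15 fits that left out 1 array each they were not called in 11 and in 9.

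Prg2 encodes the major basic protein of eosinophil granules. It read 4.66, 6.62 and 8.93 in controls (lowest, median, highest), 7.48, 5.77 and 9.08 at 10 nM, and 2.58, 2.99 and 5.61 at 100 nM. The single 100 nM array within the control range was replicate 6, above control replicate 1 alone, and the difference from control was -3.33. Epx, the peroxidase of the same granules, lay near the floor: it read 2.16, 2.39 and 4.33 in controls, 2.47, 2.36 and 5.02 at 10 nM, and 2.15, 2.15 and 2.21 at 100 nM. Its signal rested on control replicate 4 and 10 nM replicate 3, and its difference of -0.52 at 100 nM was not called.

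The defensin genes had high signals and large differences that were not called. Defa5, an alpha defensin, read 8.26, 10.32 and 13.61 in controls (lowest, median, highest), 10.94, 11.07 and 12.22 at 10 nM, and 4.69, 6.55 and 10.3 at 100 nM. Np4, a neutrophil defensin, read 8.71, 10.65 and 12.95 in controls, 11.55, 11.46 and 12.34 at 10 nM, and 5.74, 8.17 and 10.96 at 100 nM. In each, 100 nM replicates 3 and 4 lay above controls 1, 2 and 6, and the differences of -3.4 and -2.44 stood beside pooled SDs within groups of 2.07 and 1.71. Camp, the cathelicidin of neutrophil granules, read 2.59, 3.39 and 7.79 in controls, 4.85, 2.72 and 6.58 at 10 nM, and 2.17, 2.25 and 4.31 at 100 nM. Most Camp signal came from control replicates 4 and 5 and 10 nM replicates 1 and 3.

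Lcn2 encodes the siderophore-binding protein lipocalin 2, which epithelial and other tissue cells also release in injury. It did not follow the other granule genes: it read 2.11, 4.22 and 6.62 in controls (lowest, median, highest), 4.72, 9.41 and 6.62 at 10 nM, and 3.53, 4.37 and 5.45 at 100 nM. The highest array was 10 nM replicate 2, the array that was low for the erythroid genes, and the groups overlapped. Its difference from control was 0.02 at 100 nM and 2.55 ± 0.93 at 10 nM (SE; limma adjusted p = 0.102).

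**Figure D3:**
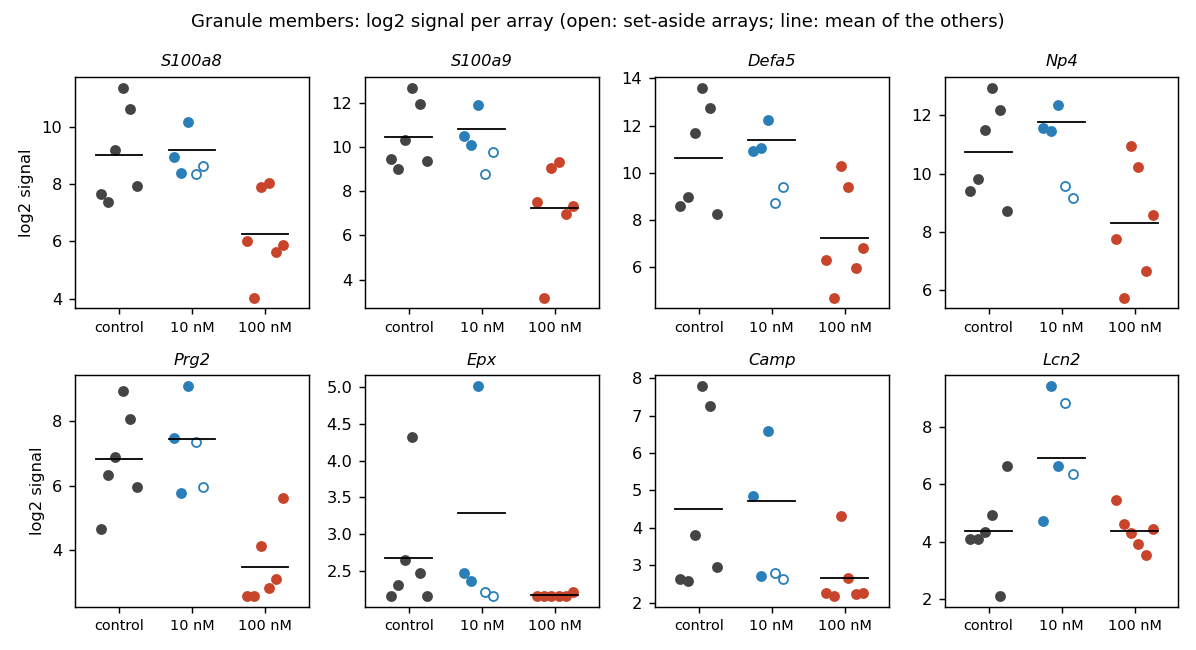
Log2 signal (vertical axis) of the 8 granule protein genes in each array, by group (controls grey, 10 nM blue, 100 nM red; open circles are the set-aside arrays, lines the mean of the kept arrays; each panel has its own axis). Controls 4 and 5 are high and controls 1, 2 and 6 low in S100a8, S100a9, Defa5, Np4 and Camp, and the 3 kept 10 nM arrays lie above all 100 nM arrays in 6 of the 8 genes.

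Compared with each other, the doses differed in 4 genes. This comparison shares the 100 nM arrays with the contrast that chose the members, as 10 nM against control shares the control arrays. Between 100 and 10 nM, Epb42, Lyl1, Creg1 and Dedd2 were called lower at 100 nM, 4 of 38 member probe sets, and none higher. Over all tested probe sets 1.43% were called, 0.195% lower and 1.24% higher. The difference in Lyl1 was -2.59 ± 0.55 log2 units (SE; limma adjusted p = 0.0386) and in Epb42 -2.69 ± 0.62 (adjusted p = 0.0487). For Creg1 the difference was -2.78 ± 0.47 (adjusted p = 0.0182) in its brighter probe set. Its other probe set gave -2.04 ± 0.49 and was not called (limma adjusted p = 0.0534). For Dedd2 the difference was -3.16 ± 0.58, or 8.95-fold (adjusted p = 0.0233). In all 4, every 10 nM array lay above every 100 nM array. None of the 4 was called without 10 nM replicate 1 or without 10 nM replicate 3, and none in a fit of those 2 groups alone.

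For 11 of the 29 genes every 10 nM array lay above every 100 nM array, which 4.00% of all tested probe sets did. The reverse order was found in no member and in 3.84% of all. Beside the 4 called genes and Tfrc these were 6 of the 8 granule genes (S100a8, S100a9, Prg2, Epx, Defa5 and Np4). Granule differences between the doses ran from -4.17 for Defa5 to -1.12 for Epx, and none passed the test. Prg2 came nearest, at -3.97 ± 0.93 (SE; limma adjusted p = 0.0518), beside adjusted p of 0.172 for Defa5 and 0.169 for S100a9. Of the 17 erythroid genes 3 had separate ranges (Epb42, Lyl1 and Tfrc), and in Slc4a1 and Klf1 the ranges met through 10 nM replicate 2 and 100 nM replicate 3 alone. Examples are Alas2 at -1.97 ± 0.77 (adjusted p = 0.287) and Klf1 at -2.58 ± 0.86 (adjusted p = 0.185).

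At 10 nM against control the means of 12 of the 17 erythroid genes were lower, those of 4 higher and that of Rhag equal, and those of all 8 granule genes were higher, with no call in either group. The granule median of 0.62 became -0.18 without 10 nM replicate 3 and -0.03 with the set-aside arrays added. Among erythroid genes the differences ran from -1.07 to 0.48, and among granule genes from 0.15 for S100a8 to 2.55 for Lcn2.

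**Figure D4:**
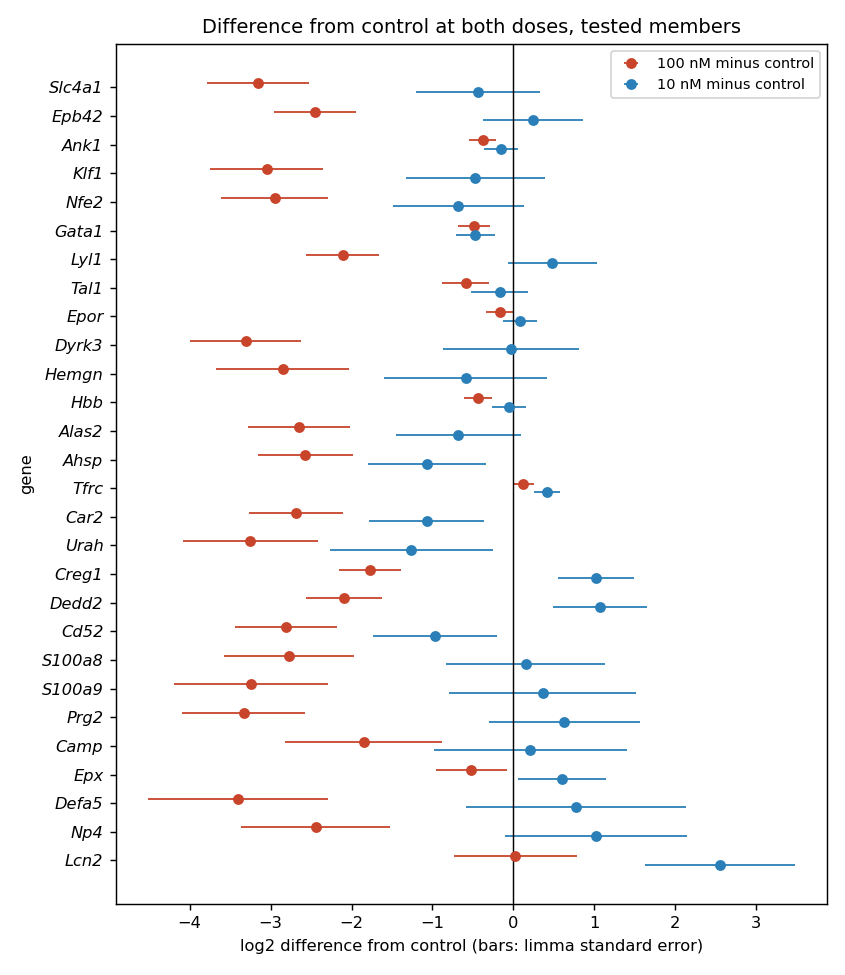
Log2 difference from control (horizontal axis, bars are limma's standard error) of the 28 tested members at 100 nM (red) and 10 nM (blue), which share the 6 control arrays. The red points run from -3.4 (Defa5) to 0.12 (Tfrc), and the blue points from -1.26 (Urah) to 2.55 (Lcn2).

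The spread between replicates was large and shared among the members. The pooled SD within groups had a median of 0.94 over the erythroid genes and 1.61 over the granule genes, against 0.2 over all tested probe sets, and 22 of the 29 genes lay above the 95th percentile of tested probe sets. Only 8 of 18938 tested probe sets had a higher pooled SD than Defa5, 17 than Camp and 20 than S100a9. The mean log2 signal of the 17 erythroid genes in each array ran from 7.15 to 8.82 in controls, from 7.01 to 8.23 at 10 nM and from 5.5 to 7.32 at 100 nM. For the 8 granule genes it ran from 6.08 to 9.57 in controls, 7.66 to 9.24 at 10 nM and 3.64 to 6.64 at 100 nM. In both sets 100 nM replicate 3 was the array of its group nearest the controls, and control replicates 1 and 2 were the lowest controls.

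**Figure D5:**
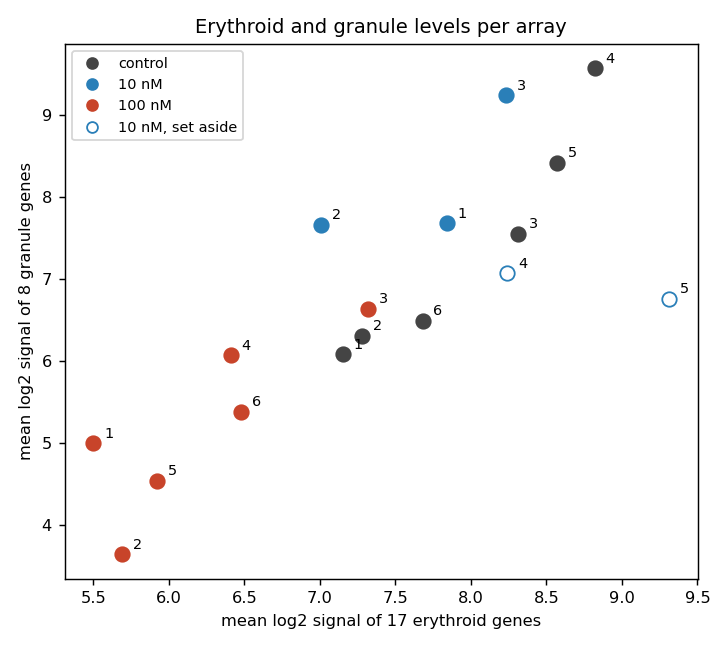
Mean log2 signal of the 17 erythroid genes (horizontal axis) and of the 8 granule genes (vertical axis) in each array, numbered by replicate (controls grey, 10 nM blue, 100 nM red, set-aside 10 nM open). Arrays at 100 nM lie at the lower left with replicate 3 among the controls, and the set-aside replicate 5 is the highest in erythroid level at 9.31 and only 6.76 in granule level.

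In the controls, replicates 1, 2 and 6 lay apart from replicates 3, 4 and 5, a division for which the labels name no batch. There the erythroid mean was 7.15 to 7.68 in replicates 1, 2 and 6 and 8.31 to 8.82 in the others, and the granule mean 6.08 to 6.49 and 7.55 to 9.57. At 100 nM the same sets overlapped, at 5.5 to 6.48 and 5.92 to 7.32 for the erythroid mean and at 3.64 to 5.38 and 4.54 to 6.64 for the granule mean. Within replicates 1, 2 and 6 the median difference of 100 nM from control was -2.0 for both the erythroid and, at -2.01, the granule genes, with no member probe set called of 200 called in all. Within replicates 3, 4 and 5 the medians were -2.42 and -3.2, with 10 member probe sets called lower and 0 higher. There 1691 of the 18938 tested probe sets were called in either direction. With the division as a term in the fit of all 15 arrays, 22 member probe sets were called lower and none higher, of 2456 called in either direction. The division was seen in these same values, so a fit with it is no independent check.

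Most erythroid members lay above or below their group means in the same arrays. Taking the side of the group mean in the 15 arrays, Hbb, Car2 and Cd52 lay on the same side as Alas2 in all 15, Urah in 14, and Slc4a1, Nfe2, Dyrk3, Hemgn and Ahsp in 13, where the median of all tested probe sets was 7. Tfrc and Creg1 did so in 8 and Ank1 and Lcn2 in 5. With S100a9, Np4 shared the side in 13 arrays and S100a8, Camp and Defa5 in 12, but Lcn2 in 8. Of the erythroid genes Slc4a1, Nfe2, Tal1, Dyrk3 and Hemgn shared the side of S100a9 in 12 arrays, as did Dedd2. These counts share arrays and are a description without a test.

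The 2 set-aside 10 nM arrays, whose cRNA yields were 25.66 and 33.68 µg, gave other values than the kept arrays of that dose. In replicate 5, 11 of the 17 erythroid genes (64.7%) lay above the highest control, as did all 4 of Urah, Cd52, Creg1 and Dedd2 but none of the 8 granule genes, where 19.8% of all tested probe sets did so. In replicate 4 it was 4 of 17 erythroid genes (23.5%), 3 of the 4 other genes and 1 of 8 granule genes, against 27.0% of all tested probe sets. Klf1 read 7.85 and 9.25 in these arrays (replicates 4 and 5), Alas2 12.98 and 13.8, Gata1 3.93 and 5.41, and Tfrc 10.62 and 10.83. With both arrays added to the 10 nM group, 10 member probe sets were called lower at 100 nM than at 10 nM and 0 higher. In that fit 191 probe sets were called in either direction, and Lcn2 was called higher at 10 nM than in controls.

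Other genes of the same roles came from lists of known genes of each role, written with earlier results of these arrays known. Of 12 tested red cell membrane genes outside the set, 2 fell at 100 nM (Rhd and Tspan33) and none rose, with a median of -0.07 over the 15 measured. Rhd, of the Rh complex, fell by 2.54, from 9.09 to 6.56. Gypc, glycophorin C, was strong in all groups and rose by 0.39 ± 0.12 at 10 nM (SE; limma adjusted p = 0.0485). Slc2a1, the glucose transporter GLUT1, rose by 0.42 at 10 nM (adjusted p = 0.0151), and Tspan33, a tetraspanin, fell by 0.71 at 10 nM (adjusted p = 0.0492). Epb41 and Tmod1, which encode protein 4.1 and tropomodulin 1 of the membrane skeleton, differed from control by -0.39 and -0.16 at 100 nM and were not called.

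Of 16 tested factor genes outside the set, 2 fell and 1 rose at 100 nM, with a median of -0.03 over the 18 measured. Tcf3, an E protein that pairs with helix-loop-helix factors, rose by 0.46. Foxo3, a forkhead factor of many tissues, fell by 0.36 and E2f2, a cell cycle factor, fell by 0.3, while Runx1 differed by -0.19 and was not called. At 10 nM Bcl11a, the repressor of fetal globin genes, fell by 0.86 ± 0.18 (SE; limma adjusted p = 0.00712) and the corepressor gene Cbfa2t3 fell by 1.09 ± 0.26 (adjusted p = 0.0154). Cbfa2t3 was also higher at 100 than at 10 nM, by 1.22 (adjusted p = 0.0398), the opposite order from the members. Zfpm1 and Gfi1b were below the filter value in all 15 arrays.

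Haem, globin and iron genes outside the set gave 6 falls and no rise among 24 tested at 100 nM, with a median of -0.2 over the 25 measured: Urod, Fech, Slc25a37, Blvrb, Glrx5 and Prdx2. Urod and Fech encode later enzymes of haem synthesis and fell by 0.23 and 0.97, and Slc25a37, which encodes the mitochondrial iron importer mitoferrin 1, fell by 1.9. Prdx2, an abundant red cell peroxidase that other cells also make, fell by 0.46, and Glrx5, a glutaredoxin of iron-sulphur cluster assembly, fell by 0.42. At 10 nM none of the 24 fell and 3 rose, namely Gypc, also on this list, the iron transporter gene Slc11a2 by 0.31 (limma adjusted p = 0.0384) and the haem exporter gene Flvcr1 by 0.66 (adjusted p = 0.0217).

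Among 15 tested granule and granulocyte genes outside the set, 1 fell at 100 nM, Anxa1, by 0.68, and none was called at 10 nM. The median at 100 nM was -0.01 over the 29 measured and -0.36 over the 15 tested. Lyz2, the lysozyme gene that macrophages share, read 12.53 ± 0.78, 12.57 ± 0.25 and 12.05 ± 0.54 in controls, at 10 and at 100 nM (SD, n = 6, 3 and 6), and S100a6 11.94 ± 0.19, 12.46 ± 0.38 and 12.15 ± 0.45. Other granule and granulocyte genes of this list (Mmp8, Cebpe, Cxcr2, Padi4, Gfi1, Csf2rb, Il5ra and Ccr3) were below the filter value in all 15 arrays.

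Markers of other blood cells moved in part with the members. Of 18 tested macrophage genes 4 fell at 100 nM (Cd68, Mrc1, Ptprc and Lcp1), with a median of -0.31 over the 20 measured, and their log2 values summed to 180.0 to 188.8 in controls, 174.8 to 186.4 at 10 nM and 170.4 to 186.3 at 100 nM. Fcer1g and Ctss, with Lyz2 the strongest of this list, differed by -0.14 and -0.27 at 100 nM and were not called. Cd163 and Cx3cr1 were below the filter value in all 15 arrays, as were 14 of 19 lymphocyte genes. Blnk, an adaptor of B cells and macrophages, fell by 0.55 at 100 nM, while Lck and Il7r differed by -0.13 and -0.14 and were not called. Of 7 tested mast cell genes 1 rose at 100 nM, Cpa3, the mast cell carboxypeptidase, by 1.36. The protease genes Mcpt1 and Mcpt10 differed by 1.31 and 1.06 and were not called, and the list summed to 37.72 to 45.97 in controls and 39.44 to 56.26 at 100 nM. Among 11 measured megakaryocyte genes 7 were below the filter value throughout and Itgb3, an integrin of platelets and other cells, rose by 2.18 at 100 nM and 1.75 at 10 nM. Pf4, a platelet chemokine, and Plek differed by -0.43 and 0.09 at 100 nM and were not called. The part of these other cells in the member values was not tested.

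Genes of vessels, muscle and mesenchyme are given for comparison. Of 12 tested endothelial genes none fell and 3 rose at both doses (Kdr, Cldn5 and Ramp2), by 2.83 at 100 nM for the tight junction gene Cldn5. Skeletal muscle genes gave 1 fall among 10 at 100 nM (Myod1, by 0.32), with a median of -0.08, and the strong muscle genes Acta1, Myh3 and Myog differed by 0.02, -0.11 and -0.2 and were not called. In the mesenchyme list 2 of 16 tested genes fell at 100 nM, the matrix proteoglycan genes Dcn by 0.19 and Lum by 0.35, and Hoxa11 rose by 0.31, with a median of 0.01 over the 17 measured. Col1a1 differed by 0.06 and was not called. At 10 nM Dcn fell by 0.24 (limma adjusted p = 0.0343) and the homeobox gene Prrx1 fell by 1.17 (adjusted p = 0.00874).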

How the data were processed

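Expression was measured on 17 Affymetrix arrays, 1 per biological replicate, from biotin-labelled cRNA made from 150 ng of RNA. The authors deposited values on a log scale, made with GCRMA per the submitters' processing notes. Its version is not given in the sources. The base of the logarithm is not stated, and the deposited range of 2.11 to 16.9 was read as log2. Whether GCRMA was run with the set-aside arrays included is not stated.

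The 57 control probe sets were left out. Testing required a value above 2.285 on 3 or more of the 15 arrays, which kept 18938 probe sets. This limit is the 40th percentile of their pooled values. All 3 groups were fitted together in limma 3.58.1 (R 4.3.3, lmFit and eBayes, 2-sided) without covariates, with Benjamini-Hochberg adjustment over all tested probe sets and a threshold of 0.05. The fit was tested on simulated data. A gene with more than 1 probe set was represented by its brightest. The number of arrays limits the precision, and the labels call the replicates biological.

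The members and gene lists were chosen with earlier results of these data known. All 32 member genes are named, and of each list the 3 strongest other genes and any called at 10 nM. Genes of a list that were counted at 100 nM are named too, after their values were seen. Alternatives were the filter, a second quantile normalization, a trended robust prior, other sets of arrays, the replicate number or division of replicates in the fit, the mean of a gene's probe sets, and leaving out each array.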

Additional observations from a re-analysis of the deposited data

Results flagged for a closer look

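Arrays far from the rest of their group were sought in 66 groups of a member probe set, and 6 were found, where chance gives about 1 in 20. That rate does not hold where the other arrays are tied near a lowest value. This was so for Epor in controls and for Epx and the dimmer Ank1 probe set at 100 nM. For Klf1, 100 nM replicate 3 read 5.11, with the next array of that dose at 3.21. For Camp the same array read 4.31, with the next at 2.66, and for the dimmer Ank1 probe set 2.32, with the next at 2.25 and both near the floor. Epor read 4.46 in control replicate 5 and 3.48 in the next control. Epx read 4.33 in control replicate 4 against 2.65 in the next, and 2.21 in 100 nM replicate 6 against 2.16.

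The set-aside 10 nM arrays, which were left out of the main comparisons, held some erythroid signals above the highest control. In replicate 4 this held for 4 of 17 genes (23.5%), where 27.0% of all tested probe sets did so. In replicate 5 it held for 11 of 17 (64.7%), against 19.8% of all tested probe sets.

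The doses differed by a test of the difference itself in 4 members, each lower at 100 than at 10 nM, with log2 differences of -2.69 for Epb42, -2.59 for Lyl1, -2.78 for Creg1 and -3.16 for Dedd2 (limma adjusted p = 0.0487, 0.0386, 0.0182 and 0.0233). The 100 nM arrays also served to choose the members, so this is no independent test of them. Over all tested probe sets 0.195% were called lower. The 10 nM group held 3 arrays, and none of the 4 was called without its replicate 1 or without its replicate 3. Nor was any called in a fit of those 2 groups alone, and the other Creg1 probe set was not called in the main fit.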

How the results depend on the processing

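At 100 nM against control the 20 member probe sets called lower became 0 in replicates 1, 2 and 6 alone and 10 in replicates 3, 4 and 5 alone, and lay between 16 and 22 without 1 array. All called probe sets, 2065 in that comparison, became 994 with all 17 arrays and 200 in replicates 1, 2 and 6, and lay between 1442 and 2616 without 1 array. At 10 nM against control the 0 members called higher became 1 (Lcn2) with all 17 arrays and lay between 0 and 1 without 1 array, and the 2004 called in all became 559 in replicates 1, 2 and 6 and lay between 1020 (without 10 nM replicate 3) and 2495, with 1256 without 10 nM replicate 1. For 100 against 10 nM the 4 members called lower became 0 with no filter on low values, 7 with the stricter filter, 10 with all 17 arrays, 0 with only the 2 groups in the fit, 19 with the division as a term and 1 in replicates 1, 2 and 6, and lay between 0 and 6 without 1 array. The 271 called in all became 22 with no filter, 3 in the fit of 2 groups, 531 with the division as a term and 134 in replicates 1, 2 and 6, and lay between 3 (without 10 nM replicate 3) and 619 (without 100 nM replicate 5). The erythroid median of -1.62 between the doses became -2.55 with all 17 arrays. The granule median at 10 nM against control, 0.62, changed sign to -0.03 with all 17 arrays and ran from -0.18 to 1.13 without 1 array. The cause of these shifts was not tested.

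Same-numbered arrays deviated together weakly, and less than some pairs of different numbers. The correlation of deviations from the group means was 0.00676, 0.174, 0.199, 0.153, 0.156 and 0.0974 for controls and 100 nM arrays numbered 1 to 6. It was -0.0433, 0.0565 and 0.131 for controls and 10 nM arrays numbered 1 to 3. Pairs of different numbers ran from -0.366 (control 5 and 100 nM replicate 6) to 0.345 (control 4 and 10 nM replicate 3). The reported fit had no block. With the replicate block 21 member probe sets were called lower at 100 nM against control (1781 probe sets in all), 0 in either direction at 10 nM (1708 in all), and 13 at 100 against 10 nM (429 in all). Of the values for single genes, 2056 kept their direction and side of the threshold or moved by less than the spread. Another 36 were counted as weaker and 36 as stronger. Beyond these, 4 moved by more (Epb42 and Gata1 within each set of replicates) and none changed the sign of a call. A call lost with a small move, as for Slc4a1 in replicates 1, 2 and 6, is among the 2056. The 36 counted as weaker are therefore not the number of lost calls. Without 1 array, Hemgn and S100a9 lost their calls at 100 nM against control in 11 of 15 fits each. Epb42 lost its call between the doses in 10. Low signals near the floor, as for Gata1, Epx, Epor and Epb42 at 100 nM, limit what these arrays can show.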
